A study of Mus musculus with 110 samples.

Results

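The response of inguinal white adipose tissue (iWAT), a subcutaneous fat depot, to 7 days of methionine restriction at room temperature was described from 14 RNA-seq libraries, 7 of Ctrl_RT and 7 of MetR_RT mice, out of 110 libraries of liver and fat from 28 mice. All 14 were taken from the deposited counts of iWAT by matching library numbers to sample titles, and their groups come from the titles alone. The mice were male wild-type C57BL/6N animals, housed singly and aged 16 weeks at the end. Ctrl_RT mice ate a control diet with 0.86% methionine, for which the text of the study gives 0.8%, and MetR_RT mice ate a diet with 0.12% methionine. Both diets were without cysteine, and both groups were kept at 22 °C. Each library came from a different mouse, so the replicates were biological and each mouse counted once.

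White adipocytes store triglyceride in a single large droplet, and the inguinal depot is known for its capacity to form beige adipocytes, which carry many mitochondria and the uncoupling protein UCP1. UCP1 lets protons return across the inner mitochondrial membrane without ATP synthesis, so that fatty acid and glucose oxidation release heat. The sympathetic nerves that supply the depot act on adipocytes through beta-adrenergic receptors, cAMP and protein kinase A, and the stroma around the adipocytes holds fibroblasts that make collagen, macrophages, endothelium and nerve fibres.

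The tissue label was checked against marker genes. Summed adipocyte transcripts, over 27 genes that include Adipoq, Lep, Pparg and Slc2a4, ran from 28720 to 38070 CPM (counts scaled to the library total after edgeR's normalization) in Ctrl_RT and from 34650 to 45070 CPM in MetR_RT. Total counts ran from 17215367 to 31843742 per Ctrl_RT library and from 16607493 to 31420731 per MetR_RT library. RNA of skeletal muscle, which lies beneath the depot, varied far more than the fat markers: the sum of 22 muscle genes ran from 33.6 to 8381 CPM in Ctrl_RT with a median of 281.1, and from 199 to 32740 CPM in MetR_RT with a median of 1293. MetR_RT library 6 and Ctrl_RT library 2 held the most in their groups. All 22 muscle genes had a positive log2 fold change of MetR_RT over Ctrl_RT, with a median of 1.78, but only Myh1 passed the test (2.80 ± 1.02 SE, adjusted p = 0.047), and Myh1 lost it in 17 alternatives, among them 9 of the 14 that leave out 1 library. Myh4, the fast IIb myosin heavy chain, had a median of 62.6 CPM in Ctrl_RT and 338 CPM in MetR_RT (log2 fold change 1.79 ± 1.49 SE, adjusted p = 0.44). Acta1, skeletal actin, differed by 1.60 ± 1.25 SE on the log2 scale (adjusted p = 0.40). Lymph node RNA was low: 21 lymphocyte genes summed to between 9.92 and 63.6 CPM over the 14 libraries, with the highest value in Ctrl_RT library 7. Keratinocyte and mammary epithelium genes, 12 in all, summed to between 8.03 and 66.7 CPM.

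Of 26428 genes with at least 10 counts in total, 3067 (11.6%) were called, that is, had an adjusted p under 0.05 and a fold change of at least 1.5. MetR_RT was higher in 1123 of them (4.25% of genes tested) and lower in 1944 (7.36%). The falls were deeper than the rises: the median log2 fold change was 0.89 among genes called higher and -1.24 among genes called lower, and 157 genes were at least 4-fold higher against 391 at least 4-fold lower. The median over all genes was -0.03. Among the 14028 genes with a mean of at least 1 CPM, 2271 were called (16.2%). In 1260 genes (4.77%) the 7 MetR_RT libraries did not overlap with the 7 Ctrl_RT libraries, and 168 of these were called higher and 592 lower. Without the 4 libraries that held the most muscle RNA, MetR_RT libraries 5 and 6 and Ctrl_RT libraries 2 and 6, 886 genes were called higher and 1547 lower. In bulk tissue, fewer cells of a type and less RNA per cell cannot be told apart, and this holds for each gene group below.

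**Figure D1:**
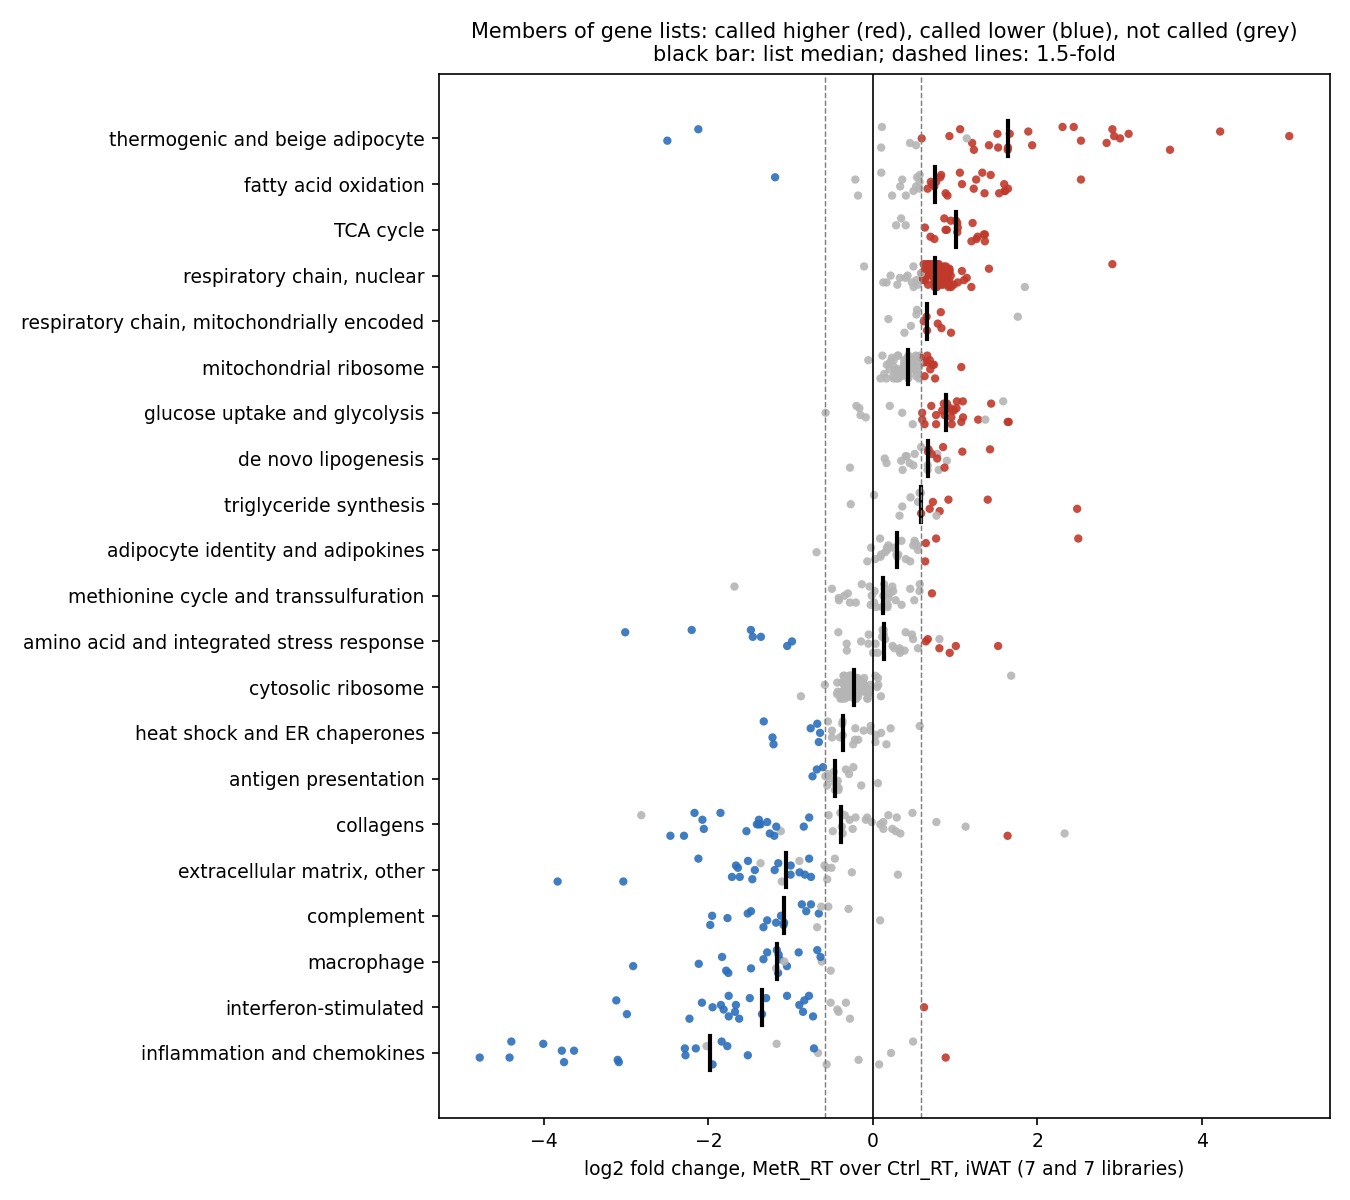
Log2 fold change of MetR_RT over Ctrl_RT in iWAT (x axis) for each member of 21 gene lists (rows), with 7 libraries per group. Points are genes, red where called higher, blue where called lower and grey where not called, black bars are list medians and dashed lines mark a 1.5-fold change. The medians run from 1.64 in the thermogenic list to -1.99 in the list of inflammation and chemokines.

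Thermogenic genes rose. Of 31 genes of brown and beige adipocytes tested, 24 were called higher and 2 lower, with a median log2 fold change of 1.64. With edgeR's glmTreat, which tests against the fold limit itself, 15 were called higher and 2 lower. Ucp1 (ENSMUSG00000031710) measured 264.4, 1.28, 62.4, 72.4, 225, 47.5 and 449 CPM in Ctrl_RT libraries 1 to 7, and 3524, 852, 1145, 3598, 210.2, 3376 and 1026 CPM in MetR_RT libraries 1 to 7. In all, 6 MetR_RT libraries lay above every Ctrl_RT library, and MetR_RT library 5, the one of the group with the least Ucp1, lay below 3 of them. The log2 fold change was 3.61 ± 0.73 SE (12.2-fold, adjusted p = 0.00068). Ctrl_RT library 2, with the least Ucp1, was also the one of its group with the most muscle RNA. MetR_RT library 6, with the most muscle RNA of its group, measured 3376 CPM of Ucp1. With the muscle genes as a covariate the value was 4.09, and without the 4 libraries richest in muscle RNA it was 3.24.

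Cox7a1, a tissue-restricted subunit of cytochrome c oxidase that is also made in muscle, ran from 4.35 to 19.6 CPM in Ctrl_RT, with a median of 8.41, and from 15.6 to 140 CPM in MetR_RT, with a median of 49.8. The groups overlapped through MetR_RT library 5 alone, which was below Ctrl_RT library 7, and the log2 fold change was 2.91 ± 0.43 SE (adjusted p = 5.9e-05). It was 3.17 with the muscle covariate and 2.64 without the 4 libraries. The muscle-rich Ctrl_RT library 2 had the lowest level of Cox7a1 of all 14.

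**Figure D2:**
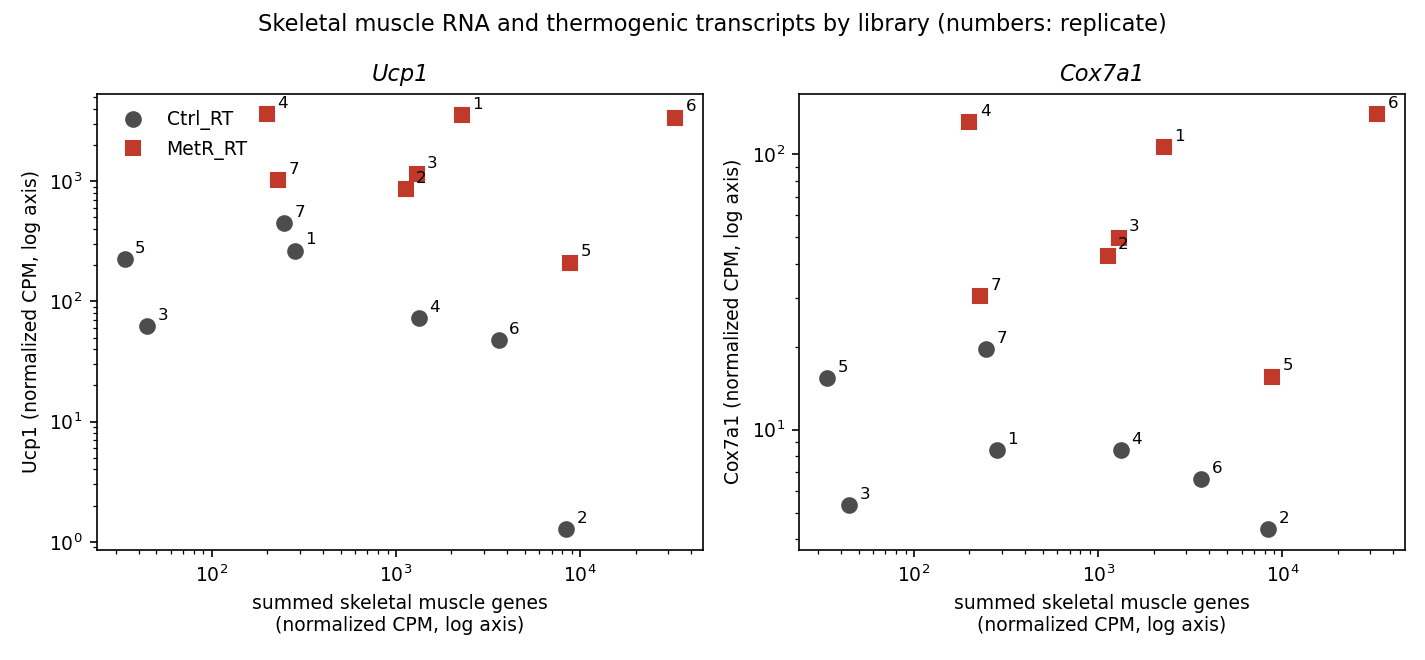
Ucp1 (left) and Cox7a1 (right) on the y axis against the summed skeletal muscle genes on the x axis, in normalized CPM on log axes, with 1 point per iWAT library and its replicate number. Circles are Ctrl_RT and squares MetR_RT. MetR_RT library 4, with 199 CPM of muscle genes, has 3598 CPM of Ucp1, and Ctrl_RT library 2, with 8381 CPM of muscle genes, has 1.28. MetR_RT library 6, with the most muscle RNA (32740 CPM), has 3376 CPM of Ucp1, and Ctrl_RT library 5, with the least (33.65 CPM), has 225.

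Other proteins of the brown adipocyte followed. Elovl3, an elongase of very long chain fatty acids, had medians of 12.1 and 120 CPM in Ctrl_RT and MetR_RT and rose by 2.93 ± 0.60 SE on the log2 scale (adjusted p = 0.00075). Cidea, a lipid droplet protein of brown fat, rose from a median of 166 to 399 CPM (1.66 ± 0.41 SE, adjusted p = 0.0036), and Cox8b, another cytochrome c oxidase subunit, from 79.1 to 175 CPM (1.41 ± 0.26 SE, adjusted p = 0.0003). Cpt1b, which admits fatty acids to mitochondria, went from 2.68 to 13.6 CPM (2.53 ± 0.45 SE, adjusted p = 0.00025). The groups overlapped for each of these, with MetR_RT library 5 the lowest of its group. Letmd1, an inner membrane protein of brown fat mitochondria, rose by 1.94 ± 0.31 SE, and Ppargc1a, the coactivator that drives mitochondrial gene expression, by 1.21 ± 0.31 SE. Cpn2, a subunit of carboxypeptidase N, rose by 3.11 ± 0.52 SE from a Ctrl_RT median of 1.46 CPM, and Bmp8b, a secreted factor of brown fat, by 5.06 ± 0.88 SE from a Ctrl_RT median of 0.056 CPM, where its fold change rests on few counts.

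**Figure D3:**
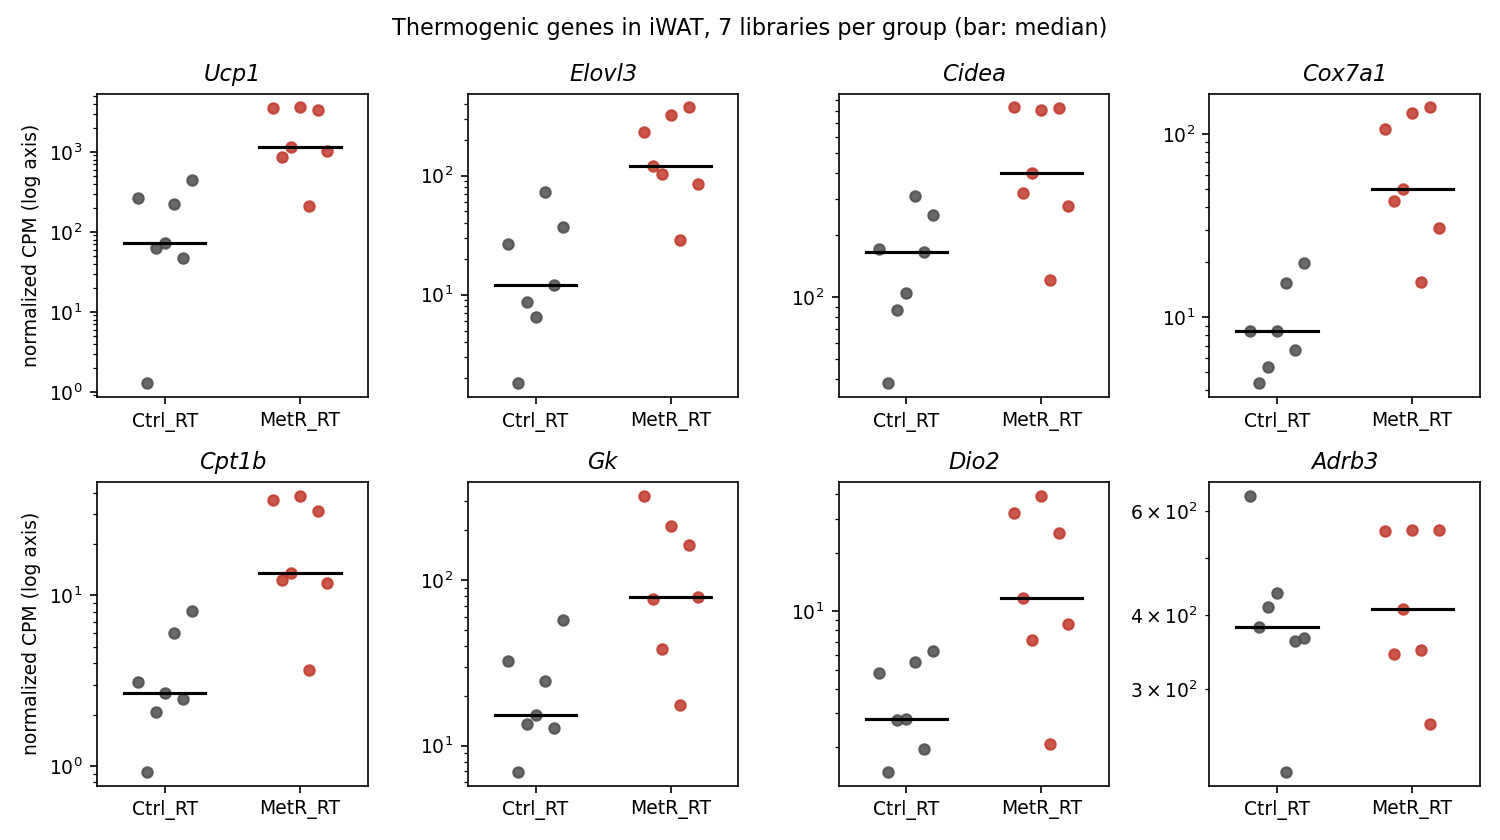
Normalized CPM (y axis, log scale) of 8 genes in the 7 Ctrl_RT and 7 MetR_RT libraries of iWAT. Points are libraries and bars are medians. Ucp1, Elovl3, Cidea, Cox7a1, Cpt1b, Gk and Dio2 were called higher in MetR_RT, while Adrb3 had medians of 382 and 410 CPM.

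Not all members moved this way. Prdm16, a transcriptional regulator of brown and beige identity, reached 0.59 ± 0.18 SE (adjusted p = 0.016), just past the 1.5-fold limit, and lost the call in 8 of the alternatives, including the removal of the 4 libraries. Ebf2, Zic1, Tbx1 and Nrg4 were not called. Tmem26 and Cited1, markers given for beige precursors and named here after their values were seen, were the members called lower. Tmem26 ran from 5.73 to 15.7 CPM in Ctrl_RT and from 0.452 to 5.45 CPM in MetR_RT, without overlap (-2.12 ± 0.44 SE, adjusted p = 0.0009), and Cited1 fell from a median of 1.51 to 0.338 CPM (-2.50 ± 0.47 SE, adjusted p = 0.00034).

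Upstream of these genes, the beta-adrenergic and cAMP list of 23 genes had 6 called higher and 2 lower, with a median of 0.24. Adrb3, the main beta-adrenergic receptor of rodent adipocytes, had medians of 382 and 410 CPM, with wide overlap (0.11 ± 0.20 SE, adjusted p = 0.75). Adrb1, the receptor shared with the heart, rose from a median of 6.78 to 16.9 CPM (1.03 ± 0.27 SE, adjusted p = 0.0053). Prkaca, the catalytic subunit of protein kinase A, rose by 0.81 ± 0.12 SE and Gnas, which encodes the stimulatory G protein alpha subunit, by 0.73 ± 0.15 SE. Arrb2, an arrestin that desensitizes receptors, fell by 1.04 on the log2 scale, without overlap between groups (adjusted p = 7.8e-05).

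Dio2, the deiodinase that makes active thyroid hormone within the cell, ran from 1.5 to 6.25 CPM in Ctrl_RT with a median of 2.79, and from 2.08 to 39.4 CPM in MetR_RT with a median of 11.8 (2.31 ± 0.51 SE, adjusted p = 0.0016). MetR_RT library 5 again lay within the range of Ctrl_RT. The promoter window of Dio2, from 250 bases before to 50 after the start of the gene, is shown because it held the letters TGACGTCA of a cAMP response element, searched on both strands, at position -95. In RefSeq's GRCm38.p6 annotation it lies on the minus strand at chr12:90738989-90739288, and capitals mark the match.
Dio2: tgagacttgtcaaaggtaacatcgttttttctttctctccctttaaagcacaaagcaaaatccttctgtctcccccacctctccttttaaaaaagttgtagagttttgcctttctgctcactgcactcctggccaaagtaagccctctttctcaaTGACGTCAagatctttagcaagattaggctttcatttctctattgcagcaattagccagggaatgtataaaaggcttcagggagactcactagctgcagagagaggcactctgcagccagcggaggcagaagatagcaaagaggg
The same letters were in 2 of the 25 thermogenic genes with a window, Dio2 and Clstn3, and in 2.03% of the 27025 genes with one. Both were called higher, as was 77.4% of the whole thermogenic list. Such a match is a description of the sequence and not a site of binding.

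Among 18 genes of heat-producing cycles that do not use UCP1, 5 were called higher and 0 lower, with a median of 0.52, and 3 were called without any one of Ctrl_RT libraries 1 and 6 and MetR_RT libraries 1 and 4. Gk, glycerol kinase, which returns glycerol to triglyceride, rose from a median of 15.3 to 79.3 CPM (2.48 ± 0.53 SE, adjusted p = 0.001). Pm20d1, a secreted enzyme that makes N-acyl amino acids, ran from 2.36 to 6.56 CPM in Ctrl_RT and from 6.83 to 17.6 CPM in MetR_RT, without overlap (1.56 ± 0.22 SE, adjusted p = 4.9e-05). Ckb, the brain-type creatine kinase of the creatine cycle, had medians of 43 and 48.1 CPM (-0.05 ± 0.18 SE, adjusted p = 0.89). Dgat1, which makes triglyceride, was at 0.59 ± 0.09 SE, next to the fold limit, and lost the call in several alternatives.

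Mitochondrial pathways rose as groups. Of 21 genes of the tricarboxylic acid cycle, 18 were called higher, 0 lower, and all 21 had a positive fold change with an adjusted p under 0.05 (median 1.01). Cs, citrate synthase, ran from 480 to 907 CPM in Ctrl_RT and from 899 to 1796 CPM in MetR_RT, overlapping only through Ctrl_RT library 5 (1.20 ± 0.17 SE, adjusted p = 4.2e-05). Mdh2, mitochondrial malate dehydrogenase, had a median of 279.6 CPM and at most 354 CPM in Ctrl_RT, and ran from 377 to 785 CPM in MetR_RT, without overlap (1.03 ± 0.15 SE). Idh3a, a subunit of isocitrate dehydrogenase, rose by 1.27 ± 0.20 SE. The calls in this list numbered 18 without the 4 libraries too, and 8 with glmTreat.

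Of 82 nuclear genes of the respiratory chain, 67 were called higher and 0 lower, with a median of 0.75. Most of these rises lay close to the fold limit: with edgeR's glmTreat, which tests against the limit itself, 6 of the 82 were called. Ndufs5 and Ndufb7, subunits of complex I, rose by 0.85 ± 0.11 SE and 0.83 ± 0.12 SE, and neither had overlapping groups. Of the 13 protein-coding genes of the mitochondrial genome, 7 were called higher and 0 lower (median 0.65), and 0 with glmTreat. In these counts 6 of the 13, mt-Nd3, mt-Nd4l, mt-Co2, mt-Co3, mt-Atp6 and mt-Atp8, were under 3 CPM in both groups, so that the tally rests largely on the other 7. The summed share of the 13 in the library went from a median of 3.55% in Ctrl_RT to 6.70% in MetR_RT. mt-Nd1, a complex I subunit, ran from 3665 to 5333 CPM in Ctrl_RT and from 5413 to 11670 CPM in MetR_RT, without overlap (0.95 ± 0.17 SE, adjusted p = 0.00026). mt-Nd5 and mt-Nd6 lie next to each other on opposite strands, so their reads may not be fully told apart, and each had a log2 fold change of 0.83.

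The machinery that translates mitochondrial genes moved by a smaller step. In the list of the mitochondrial ribosome, 11 of 78 genes were called higher and 0 lower, while 71 had a positive change with an adjusted p under 0.05 (median 0.42). Leaving out MetR_RT library 5 raised the calls to 19, and leaving out MetR_RT library 7 raised them to 17, while glmTreat called 0. Mrpl20 had the smallest p of the list and ran from 33.9 to 47.8 CPM in Ctrl_RT and from 49.9 to 71.8 CPM in MetR_RT, without overlap (0.66 ± 0.09 SE, adjusted p = 2.9e-05). Cytosolic ribosomal proteins went the other way by less than the fold limit: of 82 genes 0 were called, 39 had a negative change and 0 a positive change with an adjusted p under 0.05, and the median was -0.23. Rpl10a, for example, had medians of 94.5 and 67.6 CPM (-0.43 ± 0.08 SE).

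Fuel pathways that feed the mitochondria rose with them. In fatty acid oxidation, 22 of 36 genes were called higher and 1 lower (median 0.76), and glmTreat called 9 higher and 0 lower. Hadh, which acts on short and medium chains, ran from 345 to 491 CPM in Ctrl_RT and from 498 to 1123 CPM in MetR_RT, without overlap (1.06 ± 0.16 SE, adjusted p = 6.5e-05). Echs1 and Acads, further enzymes of the spiral, rose by 0.77 ± 0.11 SE and 0.82 ± 0.13 SE, and Acsl1, which activates fatty acids, by 0.70 ± 0.11 SE. Acot2, a mitochondrial acyl-CoA thioesterase with close paralogs, rose from a median of 25.8 to 71.9 CPM, without overlap.

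Acadm, medium-chain acyl-CoA dehydrogenase, had medians of 446 and 724 CPM in Ctrl_RT and MetR_RT, with overlap between the groups (0.88 ± 0.21 SE, adjusted p = 0.0024). Its promoter window, at chr3:153944594-153944893 on the minus strand of GRCm38.p6 in RefSeq, is shown as an example of windows that held the letters GCGCATGC, the core bound by the respiratory factor NRF1, on either strand. Capitals mark the match at position -158, read here on the other strand.
Acadm: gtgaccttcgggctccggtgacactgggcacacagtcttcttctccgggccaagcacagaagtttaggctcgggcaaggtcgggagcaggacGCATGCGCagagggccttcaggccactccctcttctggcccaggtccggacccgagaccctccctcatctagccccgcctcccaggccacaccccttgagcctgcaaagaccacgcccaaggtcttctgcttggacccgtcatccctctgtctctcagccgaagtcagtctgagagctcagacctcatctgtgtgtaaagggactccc
These letters were in 10 of 65 nuclear respiratory chain genes with a window (15.4%), 5 of 28 fatty acid oxidation genes (17.9%) and 8 of 69 mitochondrial ribosome genes (11.6%), against 3.05% of all genes with one. Of the 10 respiratory chain genes that held them, 8 were called higher, where 81.7% of the whole list was. Of the 8 mitochondrial ribosome genes 0 were, where 14.1% of that whole list was.

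Transcripts of glucose uptake and glycolysis were higher as well. Of 34 genes, 24 were called higher and 0 lower (median 0.89), with 20 higher without the 4 libraries and 3 with glmTreat. Tpi1, triose phosphate isomerase, had a median of 302 CPM and at most 351 CPM in Ctrl_RT, and ran from 453 to 723 CPM in MetR_RT, without overlap (0.77 ± 0.10 SE, adjusted p = 2.5e-05), with its highest value in the muscle-rich MetR_RT library 6. Slc2a4, the insulin-responsive glucose transporter, rose by 0.77 ± 0.18 SE and Ldhb, a lactate dehydrogenase subunit, by 1.65 ± 0.29 SE. Pdk4, which switches off pyruvate dehydrogenase, rose from a median of 182 to 594 CPM (1.64 ± 0.47 SE, adjusted p = 0.011).

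Fatty acid synthesis was less uniform. Of 24 genes of de novo lipogenesis tested, 8 were called higher and 0 lower (median 0.67), but the calls numbered 0 without the 4 libraries, 15 without Ctrl_RT library 5 and 2 without MetR_RT library 3. Fasn, fatty acid synthase, had medians of 19800 and 38430 CPM with wide overlap (0.85 ± 0.26 SE, adjusted p = 0.018), and lost its call without the 4 libraries and without MetR_RT library 3. Elovl6, the elongase that follows it, had 1.09 ± 0.38 SE (adjusted p = 0.04) and lost its call in 12 alternatives. Acly and Acaca, which make cytosolic acetyl-CoA and malonyl-CoA, had 0.80 ± 0.40 SE (adjusted p = 0.16) and 0.51 ± 0.26 SE (adjusted p = 0.18). Without Ctrl_RT library 5 both were called, at 1.25 and 0.74, and Acly also with the replicate block. Scd1, the stearoyl-CoA desaturase, had 0.40 ± 0.26 SE. The regulators Srebf1, Mlxipl and Thrsp did not pass the test, with log2 fold changes of 0.17, 0.59 and 0.41. Ctrl_RT library 5 had the highest Mlxipl of its group, at 529 CPM against a group median of 293.6, and Mlxipl was called higher in 6 alternatives, at 0.77 without that library.

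Triglyceride assembly and storage showed clearer changes at a few steps. In triglyceride synthesis, 7 of 16 genes were called higher and 0 lower. Gpd1, which makes glycerol 3-phosphate from glycolysis, ran from 2298 to 4497 CPM in Ctrl_RT and from 4324 to 11930 CPM in MetR_RT (1.40 ± 0.24 SE, adjusted p = 0.00016). Agpat2, an acyltransferase of this pathway, rose by 0.92 ± 0.16 SE. For both genes the groups overlapped only through Ctrl_RT library 5. Pck1, an enzyme on the route from pyruvate to glycerol 3-phosphate, had medians of 2203 and 3545 CPM. It did not pass the test (0.58 ± 0.33 SE, adjusted p = 0.22) except with the replicate block, where it had 0.70.

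Among 23 lipolysis and lipid droplet genes, 5 were called higher and 2 lower. The genes called lower, Hcar1 and Hcar2, named here after their values were seen, encode receptors that restrain lipolysis. The genes called lower in this list numbered 1 in 8 of the 14 alternatives that leave out 1 library and 0 without the 4 libraries. Plin5, a perilipin that tethers droplets to mitochondria, rose from a median of 34.4 to 85.2 CPM (1.51 ± 0.29 SE, adjusted p = 0.00045), and Plin2 rose by 0.79 ± 0.17 SE. Lipe, hormone-sensitive lipase, had an adjusted p of 0.0011 at 0.46 ± 0.10 SE, under the fold limit, and Pnpla2, the lipase of the first step, had 0.25 ± 0.15 SE (adjusted p = 0.27). Of 15 genes of fatty acid uptake, 2 were called higher, with 1 called without Ctrl_RT library 6 or MetR_RT library 4 and 0 without MetR_RT library 1. Lpl, lipoprotein lipase, was at 0.54 ± 0.12 SE (adjusted p = 0.0024), again under the fold limit, and was called without the 4 libraries (0.63) and without MetR_RT library 6 (0.61).

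Adipocyte identity changed little beside this. Of 27 adipocyte and adipokine genes, 4 were called higher and 0 lower (median 0.30), and 2 without Ctrl_RT library 6 or MetR_RT library 7. Adipoq, adiponectin, ran from 1172 to 2132 CPM in Ctrl_RT and from 1147 to 2192 CPM in MetR_RT (-0.07 ± 0.14 SE, adjusted p = 0.79). Lep, leptin, had medians of 239 and 305 CPM (0.49 ± 0.31 SE, adjusted p = 0.29), Cfd, adipsin, 6848 and 7386 CPM, and Retn, resistin, 669 and 866 CPM (0.31 ± 0.12 SE, adjusted p = 0.061). Pparg, the master regulator of adipocytes, ran from 88.1 to 203 CPM in Ctrl_RT and from 204 to 238 CPM in MetR_RT, without overlap, and at 0.55 ± 0.13 SE lay next to the fold limit (adjusted p = 0.0035), which it passed in 6 alternatives, with values from 0.59 to 0.64.

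The genes by which cells answer a shortage of amino acids did not move as 1 group. Of 39 genes of the amino acid and integrated stress response, 6 were called higher and 7 lower (median 0.13). Fgf21, an endocrine factor made mostly by the liver, was at 0.224 to 0.677 CPM in Ctrl_RT and 0.174 to 1.84 CPM in MetR_RT, with medians of 0.33 and 1.23 (1.52 ± 0.38 SE, adjusted p = 0.0042), and it lost its call with voom sample weights (adjusted p = 0.071 with limma). Atf5, a transcription factor of this response, rose from a median of 186 to 317 CPM (1.01 ± 0.19 SE), and Trib3, a pseudokinase induced by it, by 0.81 ± 0.23 SE. Mthfd2, of mitochondrial folate metabolism, reached 0.93 ± 0.28 SE (adjusted p = 0.015) and lost its call with the replicate block, with voom sample weights, without the 4 libraries and without MetR_RT library 3.

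Asns, asparagine synthetase, a gene often used to read this response, ran from 41 to 58.6 CPM in Ctrl_RT and from 54.7 to 83.5 CPM in MetR_RT (0.40 ± 0.11 SE, adjusted p = 0.0095), under the fold limit. Psat1 and Phgdh, of serine synthesis, had log2 fold changes of -0.14 (adjusted p = 0.46) and 0.33 (adjusted p = 0.26). Aldh18a1 and Pycr1, which make proline, fell. Aldh18a1 ran from 13.1 to 21.8 CPM in Ctrl_RT and from 6.12 to 11.6 CPM in MetR_RT, without overlap (-1.04 ± 0.16 SE, adjusted p = 7.3e-05), and Pycr1 had -1.48 ± 0.25 SE. Gdf15, a stress-induced hormone, fell from a median of 1.55 to 0.648 CPM (-2.20 ± 0.60 SE, adjusted p = 0.0085), but without Ctrl_RT library 1 it had -1.46 and no call. Gdf15 also lost its call with voom sample weights (adjusted p = 0.11 with limma). Slc7a11, the cystine transporter, named here after its values were seen, had -3.01 ± 0.80 SE (adjusted p = 0.0068), and without Ctrl_RT library 7 it had -1.21 and no call. Slc7a11 also lost its call with the replicate block (adjusted p = 0.13 with edgeR).

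Genes that handle methionine itself showed almost no change in level. Of 32 genes of the methionine cycle and transsulfuration tested, 1 was called higher and 0 lower, with a median of 0.12. The calls ran to 3 higher and 1 lower without Ctrl_RT library 5, and to 2 higher without Ctrl_RT library 3 or MetR_RT library 1 or 7. The called gene was Ahcyl1, a relative of the enzyme that splits S-adenosylhomocysteine (0.72 ± 0.18 SE, adjusted p = 0.0042). Cth and Cbs, the transsulfuration enzymes, had log2 fold changes of 0.11 ± 0.19 SE and -0.42 ± 0.39 SE. Nnmt, which uses S-adenosylmethionine to methylate nicotinamide, had medians of 105 and 70.5 CPM (-0.41 ± 0.24 SE, adjusted p = 0.25). Cdo1, cysteine dioxygenase, had an adjusted p of 0.011 at 0.45 ± 0.13 SE, under the fold limit. In the list of NRF2 antioxidant genes, 4 of 25 were called higher, or 2 without MetR_RT library 3, and 6 lower. Sod2, the mitochondrial superoxide dismutase, rose by 0.93 ± 0.17 SE and Gsta4, a glutathione transferase, by 0.91 ± 0.14 SE. Mt2, a metallothionein, ran from 10.2 to 86.8 CPM in Ctrl_RT and from 3.60 to 8.56 CPM in MetR_RT, without overlap (-2.52 ± 0.42 SE, adjusted p = 0.00014).

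Of 24 hormone and growth factor receptors tested, 1 was called higher and 0 lower, and 0 were called without Ctrl_RT library 1 or 5 or MetR_RT library 4 or 7. The receptor pair for FGF21 had log2 fold changes of 0.30 ± 0.13 SE for Klb (adjusted p = 0.097) and -0.21 ± 0.12 SE for Fgfr1 (adjusted p = 0.23). In the list of IGF1 and its binding proteins, 3 of 11 genes were called lower, and 1 without Ctrl_RT library 2 or MetR_RT library 4 or 6. Igf1 had medians of 198 and 146 CPM and at -0.58 ± 0.13 SE lay next to the fold limit without a call (adjusted p = 0.0018), but was called lower in 10 alternatives, with values from -0.67 to -0.59. Socs2, which is induced by growth hormone, fell by 0.84 on the log2 scale (adjusted p = 0.0022). With the replicate block Socs2 lost its call (adjusted p = 0.062 with edgeR).

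The extracellular matrix fell. Of 44 collagen genes tested, 17 were called lower and 1 higher (median -0.39). Among the 44, 16 were under 3 CPM in both groups. Of 28 other matrix genes 18 were called lower and 0 higher (median -1.05). Without the 4 libraries 13 collagens and 15 other matrix genes were called lower, and with glmTreat 9 and 6. The collagens called higher numbered 0 to 3 over single libraries left out. Summed collagen transcripts ran from 14230 to 35090 CPM in Ctrl_RT and from 4992 to 12480 CPM in MetR_RT, so that the groups did not overlap. Col1a1 ran from 2154 to 9121 CPM in Ctrl_RT with a median of 4915, and from 456 to 2185 CPM in MetR_RT with a median of 645. The groups met only where MetR_RT library 2 lay just above the lowest Ctrl_RT library, and the log2 fold change was -2.46 ± 0.49 SE (adjusted p = 0.00058). Col3a1 ran from 3630 to 12540 CPM in Ctrl_RT and from 870.5 to 2692 CPM in MetR_RT, without overlap (-2.30 ± 0.41 SE, adjusted p = 0.00023).

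Beyond the collagens, Timp1, an inhibitor of matrix metalloproteinases, fell from a median of 16.6 to 0.602 CPM (-3.83 ± 0.54 SE, adjusted p = 4.2e-05). Postn, periostin, and Vcan, versican, fell by 2.12 and 2.14 on the log2 scale, both without overlap. MetR_RT libraries 2 and 5 had the highest Col1a1, Postn and Timp1 of their group. Genes of progenitors and fibroblasts moved in the same direction, with 6 of 13 called lower and 1 higher. The genes called lower numbered 3 without Ctrl_RT library 6 or MetR_RT library 3 or 4, and 3 without the 4 libraries. Pdgfra and Ly6a, surface markers of these cells, fell by 0.94 and 1.26. Their sum ran from 1860 to 3584 CPM in Ctrl_RT and from 991 to 2804 CPM in MetR_RT, and its part in the matrix result was not tested. Of 27 heat shock and endoplasmic reticulum chaperone genes, 7 were called lower and 0 higher, among them Pdia3 and Pdia6, which form disulfide bonds (-0.68 ± 0.09 SE and -0.66 ± 0.09 SE, both without overlap).

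Macrophage genes fell too. Of 20 genes, 16 were called lower and 0 higher (median -1.16), with 12 called lower without the 4 libraries and 5 with glmTreat. Their sum ran from 2340 to 3822 CPM in Ctrl_RT and from 478.7 to 1882 CPM in MetR_RT, without overlap. Adgre1, which encodes the F4/80 antigen, ran from 67.0 to 128 CPM in Ctrl_RT with a median of 80.4, and from 12.5 to 48 CPM in MetR_RT with a median of 22.8 (-1.76 ± 0.33 SE, adjusted p = 0.00033). Lyz2, lysozyme, ran from 631 to 944 CPM in Ctrl_RT and from 92.9 to 403 CPM in MetR_RT (-1.78 ± 0.34 SE, adjusted p = 0.0004). In both genes the groups were apart, and MetR_RT libraries 2 and 5 stood highest in their group. Fcgr1, an Fc receptor of monocytes and macrophages, had the smallest p of the list and fell by 2.92 on the log2 scale.

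**Figure D4:**
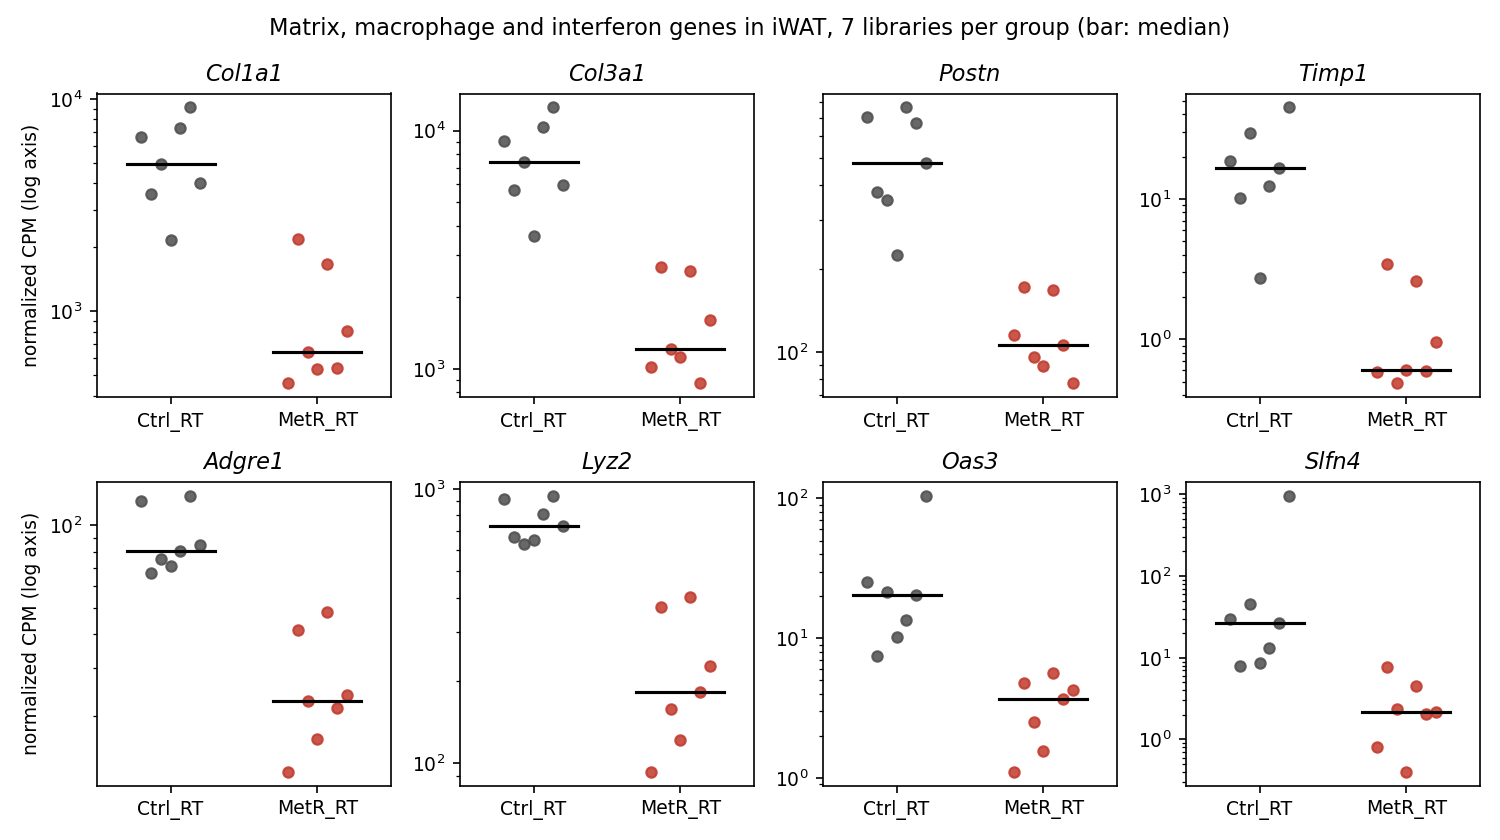
Normalized CPM (y axis, log scale) of 4 matrix genes (top) and 4 macrophage, interferon or myeloid genes (bottom) in the 7 Ctrl_RT and 7 MetR_RT libraries of iWAT. Points are libraries and bars are medians. In all but Col1a1 and Timp1 every MetR_RT library lies below every Ctrl_RT library, and 1 Ctrl_RT library reaches 961 CPM of Slfn4.

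Complement, the cascade of innate immunity that adipose tissue both makes and senses, had 15 of 20 genes called lower and 0 higher (median -1.08). The genes called lower numbered 10 without the 4 libraries and 3 with glmTreat. C5ar1 and C3ar1, the receptors for the small complement fragments, fell by 1.98 and 1.96 on the log2 scale, each without overlap. C2, of the classical pathway, ran from 31.1 to 70.9 CPM in Ctrl_RT and from 15.8 to 36.5 CPM in MetR_RT (-1.08 ± 0.19 SE, adjusted p = 0.00021), overlapping only through Ctrl_RT library 5. C6, of the terminal complex, had -1.09 ± 0.39 SE (adjusted p = 0.047) and lost its call in 14 alternatives. The macrophage sum moved with these genes, and its part in the result was not tested.

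Interferon-stimulated genes were lower across most of their list: 21 of 27 were called lower and 1 higher (median -1.35). Without the 4 libraries 22 were called lower, while glmTreat called 10 lower and 0 higher. Oas3, an antiviral enzyme that senses double-stranded RNA, ran from 7.52 to 104 CPM in Ctrl_RT with a median of 20.4, and from 1.11 to 5.62 CPM in MetR_RT with a median of 3.69 (-3.12 ± 0.56 SE, adjusted p = 0.00024). Its paralogs Oas2 and Oas1a fell by 1.75 and 1.95. Oas1a ran from 10 to 53.6 CPM in Ctrl_RT and from 2.80 to 8.20 CPM in MetR_RT, without overlap, although reads of close copies of Oas1a could be shared. Ifi27, the member called higher, ran from 455 to 591 CPM in Ctrl_RT and from 602 to 958 CPM in MetR_RT, without overlap (0.62 ± 0.10 SE, adjusted p = 0.00015), and lost its call without the 4 libraries and without MetR_RT library 6. The macrophage sum was lower beside these genes too, and its part was not tested.

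The promoters of the list shared letters of an element named for genes of this kind, so the match and the list's choice are not independent. The core of the interferon-stimulated response element (GAAA, any 2 bases and GAAA again) was searched on both strands. It was in 14 of the 20 listed genes with a window (70.0%), against 3.99% of all genes with one. Of the 14, 12 were called lower, where 77.8% of the whole list was. The windows of Oas1a and Oas3 are shown because both genes fell without overlap between groups. They lie on the minus strand of GRCm38.p6 in RefSeq, at chr5:120907476-120907775 for Oas1a and chr5:120777610-120777909 for Oas3. Capitals mark the matches, which begin at -20 and -14 and overlap in Oas1a, and at -75 in Oas3.
Oas1a: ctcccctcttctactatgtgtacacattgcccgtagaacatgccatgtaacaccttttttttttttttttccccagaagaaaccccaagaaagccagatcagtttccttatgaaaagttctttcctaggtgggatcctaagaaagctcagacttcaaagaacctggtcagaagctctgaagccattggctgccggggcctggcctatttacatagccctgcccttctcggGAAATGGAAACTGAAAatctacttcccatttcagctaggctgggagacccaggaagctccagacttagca
Oas3: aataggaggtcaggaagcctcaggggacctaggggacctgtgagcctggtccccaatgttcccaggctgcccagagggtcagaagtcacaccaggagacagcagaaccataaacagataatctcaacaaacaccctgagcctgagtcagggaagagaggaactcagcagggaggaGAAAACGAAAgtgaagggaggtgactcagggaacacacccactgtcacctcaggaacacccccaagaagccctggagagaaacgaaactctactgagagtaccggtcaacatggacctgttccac
The match describes these windows, and binding was not measured.

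Inflammatory genes had the lowest median of the lists in the plot of list members, at -1.99, with 17 of 26 called lower and 1 higher. Under glmTreat 12 were called lower and 0 higher. Ccl9, a chemokine, ran from 98.0 to 270 CPM in Ctrl_RT and from 16.4 to 64.3 CPM in MetR_RT, without overlap (-2.28 ± 0.33 SE, adjusted p = 4.9e-05), and Ccr2, the receptor of inflammatory monocytes, fell by 1.84 without overlap. Ccl2 and Ccl7, chemokines that recruit such monocytes, had log2 fold changes of -3.63 and -3.76. Ctrl_RT library 7 held 129 CPM of Ccl2 where the group median was 12.4 CPM, and without it Ccl2 had -2.58. The macrophage sum moved with this list, and its part was not tested. Antigen presentation moved less, with 3 of 18 genes called lower and 13 with a negative change at an adjusted p under 0.05 (median -0.46), and 5 or 6 were called lower without any one of Ctrl_RT libraries 1, 2 and 7 and MetR_RT libraries 2, 5 and 7. Psmb8, of the immunoproteasome, had -0.53 ± 0.10 SE without overlap.

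The 12 largest called falls among genes of at least 5 CPM in one group and with no overlap between groups included several genes known from myeloid cells. Clec4e, a receptor for damaged cells and mycobacteria, ran from 0.413 to 39.9 CPM in Ctrl_RT and from 0 to 0.194 CPM in MetR_RT (-6.17 ± 1.07 SE, adjusted p = 0.00018). Slfn4, an interferon-induced gene of myeloid cells, measured 29.7, 7.87, 46.1, 8.67, 13.3, 26.5 and 961 CPM in Ctrl_RT libraries 1 to 7 and from 0.401 to 7.68 CPM in MetR_RT (-5.76 ± 1.0 SE, adjusted p = 0.00019). Ctrl_RT library 7 sets the size of these values: without it Clec4e had -3.84, Slfn4 -2.94, Chil3 -3.23 in place of -4.48, Il1rn -2.96 in place of -4.4, Ly6c2 -2.10 in place of -4.31 and Ms4a4c -2.80 in place of -4.31, and all kept their call. S100a9 and S100a8, which neutrophils and monocytes secrete, had -4.82 ± 1.13 SE and -3.77 ± 0.87 SE, and without that library S100a9 had -3.22 and S100a8 -2.25. The summed macrophage genes and the summed blood genes, which include S100a8 and S100a9, were also lower without overlap, and their part in these values was not tested. Oas3, Cd300lf, Clec4d and B430306N03Rik completed the 12 genes of this ranking.

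At the other end, Lgr6, a receptor for R-spondins, ran from 0 to 1.38 CPM in Ctrl_RT and from 2.14 to 57.2 CPM in MetR_RT (5.41 ± 0.80 SE, adjusted p = 5.6e-05). Kng2, a kininogen with a close paralog, ran from 0.352 to 2.14 CPM and from 2.49 to 38 CPM (4.4 ± 0.64 SE, adjusted p = 5.1e-05). Gmpr, which converts guanine to inosine nucleotides, rose by 2.48 ± 0.54 SE and Slc25a48, a mitochondrial carrier, by 2.03 ± 0.30 SE. S100b, a calcium-binding protein of Schwann cells that brown adipocytes also secrete, rose from a median of 3.77 to 9.40 CPM (1.86 ± 0.29 SE), while the nerve and Schwann cell list of 13 genes had 1 called higher and 2 lower, or 1 lower without any one of 7 libraries. Cisd3, a mitochondrial iron-sulfur protein, ran from 24.9 to 51.9 CPM in Ctrl_RT and from 53 to 89.3 CPM in MetR_RT (1.17 ± 0.16 SE, adjusted p = 3.2e-05). Arhgef37, Acot2, Clic5, Cyp2u1, Pm20d1 and Gm43672 completed the 12, at log2 fold changes from 1.18 to 1.69.

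The smallest p-values belonged to changes of moderate size with little spread. Il4ra, a receptor subunit for interleukins 4 and 13, had the smallest among the falls and ran from 60.8 to 107 CPM in Ctrl_RT and from 23.3 to 38.5 CPM in MetR_RT (-1.31 ± 0.13 SE, adjusted p = 3.6e-06). Bmper, an extracellular regulator of bone morphogenetic proteins, fell by 1.29, and Ptpn1, a phosphatase that dampens insulin and leptin signalling, had -0.57 ± 0.07 SE (adjusted p = 1.4e-05), just under the fold limit. Among the rises, Acot6, an acyl-CoA thioesterase with close paralogs, ran from 4.53 to 5.62 CPM in Ctrl_RT and from 8.03 to 9.56 CPM in MetR_RT (0.80 ± 0.08 SE, adjusted p = 5.7e-06). Acyp2, an acylphosphatase, rose by 1.04 ± 0.11 SE, Coq7, which completes ubiquinone, by 1.09 ± 0.13 SE, and Prkce, a protein kinase C, by 1.0 ± 0.12 SE. In each of these 7 genes the groups did not overlap. The other genes of this ranking were Sdsl, Kcnk2, Sgcb, Adh1, Ginm1 and Gm20544 among the rises and Tubb6, Vcan, Arid5a, Adgra2, Prr13, Gpr35 and Adam17 among the falls, of which Sgcb was not called.

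Other groups moved in part. Of 19 clock genes, 4 were called higher and 1 lower. The genes called higher numbered 2 without Ctrl_RT library 3, 9 without Ctrl_RT library 5 and 6 without MetR_RT library 3 or 4. Nr1d1, the REV-ERB alpha repressor, ran from 68.4 to 123 CPM in Ctrl_RT and from 181 to 246 CPM in MetR_RT, without overlap (1.03 ± 0.14 SE, adjusted p = 4.2e-05). Hlf, an output factor of the clock, rose by 1.16 ± 0.20 SE and Npas2 fell by 1.18 on the log2 scale. The hour of collection per mouse was not used here. In cholesterol synthesis and uptake, 6 of 25 genes were called higher and 0 lower, among them Hmgcs1 (0.78 ± 0.19 SE), with 13 called without Ctrl_RT library 5 and 2 without MetR_RT library 3. Of 26 proliferation genes, 12 were called lower and 0 higher, including Mcm6, of the replication helicase (-0.93 ± 0.17 SE, without overlap). The proliferation genes called lower numbered 5 without the 4 libraries, 7 without Ctrl_RT library 1 and 0 with glmTreat. Of 22 immediate early genes, 3 were called lower and 0 higher. In the endothelium list, 1 of 12 genes was called higher, Kdr, the main VEGF receptor, at 0.59 ± 0.14 SE next to the fold limit. Kdr lost its call in 9 alternatives, and 0 genes of the list were called without any one of 5 libraries or without the 4 libraries. Of 10 erythroid and blood genes, all had a negative fold change (median -0.94) and 4 were called lower, namely Ppbp and Pf4, of platelets, and S100a8 and S100a9. The globin genes Hba-a1 and Hbb-bs had -0.48 (adjusted p = 0.16) and -0.53 (adjusted p = 0.12). The sum of the 10 ran from 135 to 266.7 CPM in Ctrl_RT and from 72.4 to 123 CPM in MetR_RT, without overlap.

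How far the diet effect in iWAT differed from that in interscapular brown fat (iBAT) was tested in the mice that had both depots, 6 Ctrl_RT and 7 MetR_RT, by taking the difference of log2 CPM between depots within each mouse. One of these iBAT libraries carries a treatment tag that names another group than its title, and the title was used. Of 25944 genes, 1252 (4.83%) had a diet effect that differed between depots, 788 more positive in iWAT and 464 more negative. Ucp1 differed between diets by 4.59 on the log2 scale in iWAT and by 0.24 in iBAT of the same mice. The difference was 4.34 ± 1.13 SE (adjusted p = 0.038 with limma), and 3.31 to 4.92 over single mice left out. Its adjusted p passed 0.05 when any of 9 mice was left out, reaching 0.078. The mouse of the iBAT library whose tag names another group was 1 of these (adjusted p = 0.073 with limma). Ctrl_RT library 2, with 1.28 CPM of Ucp1 in iWAT, was among the 6 Ctrl_RT mice. Cox7a1 differed by 2.87 and 0.30 (adjusted p = 0.018), Cpt1b by 2.60 and -0.04 (adjusted p = 0.018), and Cidea by 1.86 and -0.35 (adjusted p = 0.024), of which Cidea lost its call without each of 3 mice. Cisd3 had 1.31 in iWAT and 0.06 in iBAT, a difference of 1.25 ± 0.14 SE (adjusted p = 0.0023).

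For 2 adipokines the larger difference between diets was in iBAT. Retn differed by 0.33 in iWAT and by -1.25 in iBAT, a difference of 1.58 ± 0.17 SE (adjusted p = 0.0022), and Cfd by 0.09 and -0.89 (adjusted p = 0.0079). Nnmt had -0.61 in iWAT and -1.98 in iBAT (adjusted p = 0.033), and Adgre1 -1.86 and -0.54 (adjusted p = 0.029), but both of these calls were lost when single mice were left out. For Col1a1 the depots had -2.47 and -1.66 (adjusted p = 0.22), and for Col3a1 -2.23 and -1.52 (adjusted p = 0.16). C2 had -1.21 and -1.34 (adjusted p = 0.81), Asns 0.37 and 0.55 (adjusted p = 0.56), and Mthfd2 0.79 and 1.99 (adjusted p = 0.073), so that no difference between depots was called for these 5 genes. Mthfd2 was called, with the larger rise in iBAT, under edgeR's filterByExpr and without the mouse of MetR_RT library 3.

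**Figure D5:**
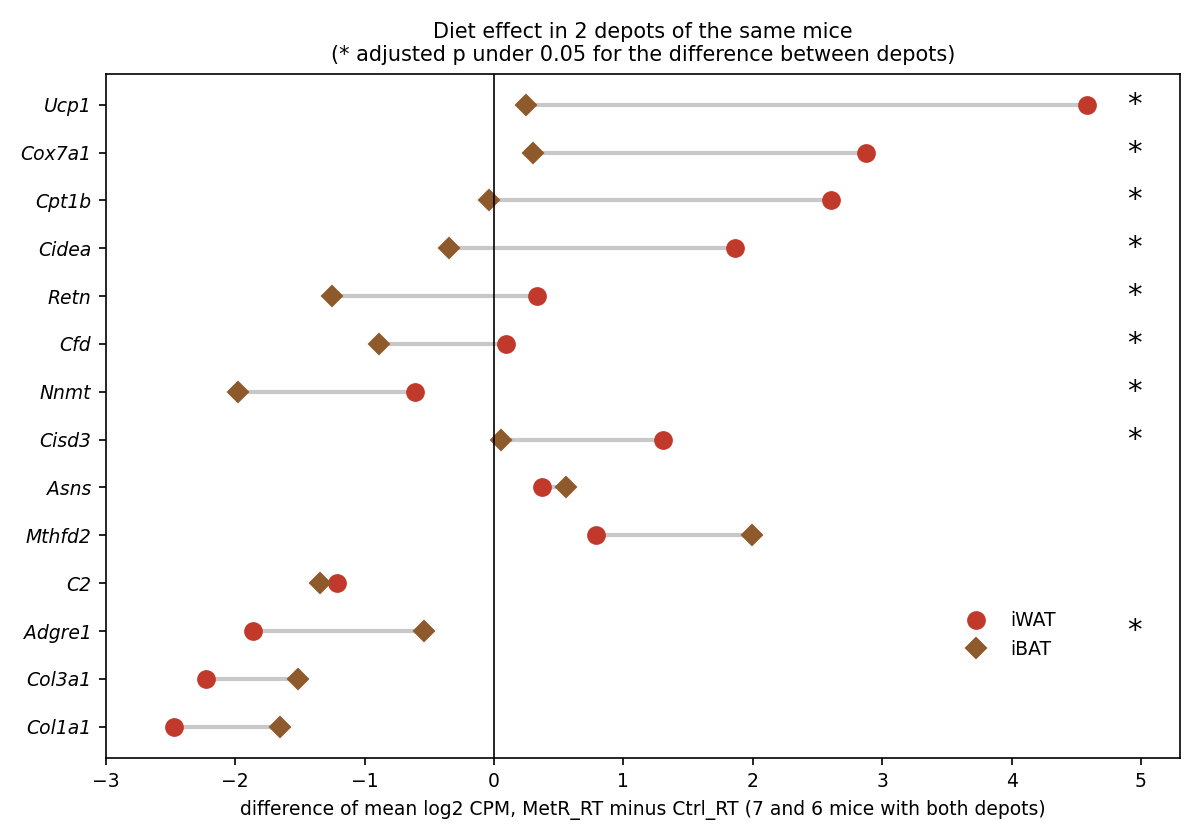
Difference of mean log2 CPM, MetR_RT minus Ctrl_RT (x axis), for 14 genes (rows) in iWAT (circles) and iBAT (diamonds) of the same 7 MetR_RT and 6 Ctrl_RT mice. Stars mark an adjusted p under 0.05 (limma) for the difference between depots. Ucp1 lies at 4.59 in iWAT and 0.24 in iBAT, while C2 lies at -1.21 and -1.34.

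Epididymal white fat (eWAT) was compared in 4 Ctrl_RT and 6 MetR_RT mice. Both depots were sequenced in every mouse of these groups. The eWAT libraries left out, Ctrl_RT 2, 4 and 5 and MetR_RT 7, were inferred from the study's source data as those it excluded. In this set 1 of 27070 genes (0.00369%) was called, while 4699 genes had an unadjusted p under 0.05. The called gene was Csgalnact1, which starts chondroitin sulfate chains, with -1.25 in iWAT and 0.45 in eWAT, a difference of -1.70 ± 0.17 SE (adjusted p = 0.048 with limma). The count depended on the processing, with 1.53% of genes tested called under edgeR's expression filter and 3.69% with limma's voom and the mouse as a random block. With all eWAT libraries it was 0.216%. No gene, Csgalnact1 included, was called with a prior count of 0.5. The same held without any one of Ctrl_RT mice 1 and 3 and MetR_RT mice 1, 2, 3, 4 and 6. Ucp1 had 3.41 in iWAT and 0.32 in eWAT (adjusted p = 0.25), Cox7a1 2.87 and -0.08 (adjusted p = 0.13), Col3a1 -2.54 and -0.86 (adjusted p = 0.14) and C2 -1.23 and -1.0 (adjusted p = 0.80). None of these 4 differences between depots was called.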

How the data were processed

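The deposited tables hold raw, whole-number counts, 1 row per gene and 1 column per library, which the authors made from poly(A)-selected RNA and the mm10 assembly. The submitters' processing notes list STAR 2.7.9a, featureCounts 2.0.3 and Salmon 1.9.0, and the tables are named for Salmon, although the study's methods give featureCounts for gene-level counts. The versions of the gene identifiers do not match the annotation release that the study names, so the release used is not clear. Whether counting used strand is not given either, so overlapping genes, antisense genes and close paralogs may share reads. All 82 columns of the tables used were matched to samples by library number, and 0 were left unused. Ensembl identifiers numbered 56884, of which 51948 had a symbol. No 2 of the 14 libraries held identical values among 91 pairs.

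Genes with at least 10 counts over the iWAT libraries were fitted in edgeR 4.0.16 (R 4.3.3) with TMM factors, over all 27 iWAT libraries of 4 groups so that the spread was shared, and MetR_RT was tested against Ctrl_RT by the quasi-likelihood F test. Adjusted p are Benjamini-Hochberg values over all genes tested. A called gene had an adjusted p under 0.05 and a fold change of at least 1.5. The SE is the size of the log2 fold change divided by the square root of F. Levels are normalized CPM per library. Total counts set the error of low genes and do not enter fold changes after normalization. Effects in 2 depots were compared on within-mouse differences of log2 CPM with limma 3.58.1, leaving out the eWAT libraries that the study left out, which were identified from its source data. The fit was tested on simulated counts.

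The genes named are (a) the 12 largest called changes in each direction with no overlap between groups, a mean of at least 5 CPM in the higher group and no place in the muscle, lymph node or epithelium lists, (b) the 10 smallest p in each direction, (c) a fixed set of thermogenic, lipid, amino acid, matrix and muscle genes and (d) the 4 smallest p of each list. A gene that this rule names is not reported here. The genes, lists and comparison were chosen with earlier results of these data known, so list counts are descriptions. Same-numbered libraries of the 2 groups come from different mice, and the correlations of their deviations ran from -0.11 to 0.23, with 2 of 7 over 0.1, so the numbers were not taken as pairs. Other fits tried were RLE factors, DESeq2 1.42.0 (plain, or shrunk by apeglm 1.24.0), other filters, glmTreat, voom weights, only the 14 libraries, muscle or lymphocyte covariates, the replicate number as a block and each library left out. Leaving out the 4 libraries richest in muscle RNA was added after the data were seen. Promoters are RefSeq windows of GRCm38.p6.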

Additional observations from a re-analysis of the deposited data

Results flagged for a closer look

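In 324 groups of 7 libraries, the highest or lowest library was set against the other 6. These were the Ctrl_RT group and the MetR_RT group for each gene followed and each marker sum. By Dixon's test on the log2 scale, 23 stood apart. Chance flags about 1 in 20 groups. Ctrl_RT library 5 stood apart in 8 of the 23 and Ctrl_RT library 7 in 6.

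Ctrl_RT library 5 was the highest of its group in Cs (907 CPM), Mrpl20 (47.8 CPM), Mlxipl (529 CPM), Gpd1 (4497 CPM), Agpat2 (1599 CPM), Plin2 (1137 CPM) and Cisd3 (51.9 CPM), all mitochondrial or lipid genes, and the lowest in C2 (31.1 CPM). For Cs, Gpd1, Agpat2 and C2 it was the library through which the groups overlapped.

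Ctrl_RT library 7 was the highest of its group in the myeloid or interferon genes Slfn4 (961 CPM), Ly6c2 (70.7 CPM) and Ms4a4c (87.0 CPM), in Slc7a11 (7.42 CPM) and in the summed lymph node genes (63.6 CPM), and the lowest in Cfd (3738 CPM). Ctrl_RT library 2, rich in muscle RNA, was the lowest in Ucp1 (1.28 CPM) and the highest in Trib3 (11 CPM). Ctrl_RT library 1 was the lowest in Scd1 (23480 CPM) and Nr1d1 (68.4 CPM). Ctrl_RT library 6 was the lowest in Kdr (63.1 CPM) and the highest in the summed macrophage genes (3822 CPM).

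In MetR_RT, library 5 was the lowest in Adrb1 (5.91 CPM), library 6 the highest in Tpi1 (723 CPM) and library 3 the highest in S100a9 (0.875 CPM).

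The other values stand here because the diet effect differed between depots of the same mice by the limma test. Between iWAT and iBAT 1252 genes did so, among them Ucp1 (4.34), Cidea (2.21), Cox7a1 (2.57), Cpt1b (2.64), Cfd (0.98), Retn (1.58), Nnmt (1.37), Adgre1 (-1.32) and Cisd3 (1.25), each value being the log2 effect in iWAT minus that in iBAT. Between iWAT and eWAT, Csgalnact1 did so (-1.70), but it lost its call when any one of several mice was left out.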

How the results depend on the processing

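The counts of called genes changed by less than 1.5 times under every alternative but glmTreat, which tests against the fold limit and called 695 genes, 160 higher and 535 lower. Leaving out 1 library gave 2601 to 3342 calls, 963 to 1261 higher and 1620 to 2111 lower. The replicate block gave 2710 calls, 937 higher and 1773 lower, and 1 of the Ctrl_RT libraries correlated best with the MetR_RT library of its own number, so the pairing is by number only. DESeq2 called 1025 higher and 1706 lower with apeglm, and 1220 higher and 1919 lower without. Of 150 genes followed, 118 were called, 0 of these turned direction, and 104 kept their call in every alternative but glmTreat, which dropped 48.

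Of the 32 not called, 9 were called in at least 1 alternative (Acly, Acaca, Mlxipl, Lpl, Pparg, Igf1, Psmb8, Ptpn1 and Pck1) and 6 turned direction: Ckb (0.0503), Adipoq (0.0260) and Cth (-0.0258) without the 4 muscle-rich libraries, Acta1 (-0.42) with the muscle covariate, and, over libraries left out, Ckb (-0.11 to 0.0494), Adipoq (-0.15 to 0.0045), Cfd (-0.0127 to 0.147) and Cbs (-0.611 to 0.0471). Genes whose diet effect differed between iWAT and iBAT made up 2.76% to 6.3% of those tested when a mouse was left out, in place of 4.83%. They made up 9.29% under filterByExpr, which also changes the genes tested, and 5.37% with voom and the mouse as a random block. The share was 4.1% with a prior count of 0.5 and 3.36% without the iBAT library whose tag names another group. Against eWAT, in place of 1 gene (0.00369%), 0.216% of genes tested were called with all eWAT libraries, 1.53% under filterByExpr, 0% with a prior count of 0.5, 3.69% with voom and the mouse as a random block, and 0% to 0.0897% when a mouse was left out. The causes of these shifts were not tested. At this depth, genes under about 1 CPM in at least 1 group, such as Bmp8b, Fgf21, Cited1 and Slc7a11, rest on few counts there.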
